A study of Arabidopsis thaliana with 10 samples.

Results

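The PRE genes, also called BANQUO (BNQ) genes, encode a family of very small helix-loop-helix (HLH) proteins in Arabidopsis thaliana. All 6 were taken from the deposited expression tables by locus identifier, 6 of 27086 loci: PRE1 (AT5G39860), PRE2 or BNQ2 (AT5G15160), PRE3 (AT1G74500), PRE4 or BNQ3 (AT3G47710), PRE5 (AT3G28857) and PRE6 (AT1G26945). They were picked with earlier results from the same libraries in view, so their own differences between genotypes are given as a description. How many passed the threshold of the fit across all loci is given once, beside the share of all loci that did, and nothing is read from it.

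An HLH domain lets proteins pair, and a basic region beside it lets a pair bind DNA. PRE proteins lack a working basic region, so they act by pairing: they take up inhibitory HLH proteins such as IBH1, PAR1, HFR1 and the AIF proteins, which frees DNA-binding activators such as HBI1 to switch on cell elongation. Brassinosteroid, gibberellin, auxin and light signals all act on these proteins in the seedling.

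The libraries come from Col-0 seedlings, 10 DAG in the labels' notation, in 5 genotypes with 2 libraries each: the wild type, called WT here, atbmi1a and atbmi1b as single mutants, the double mutant labelled atbmi1ab strong (atbmi1ab_strong here), and the triple mutant atbmi1abc. The AtBMI1 proteins are RING-finger subunits of Polycomb repressive complex 1, which keeps developmental genes silent. No transgene or treatment is named for any group, with the mutant alleles not given in the sources used here. Values are FPKM, fragments scaled to transcript length and to mapped fragments, so levels can be set side by side between genes of different length. The labels do not say whether the 2 libraries of a genotype are separate batches of plants. The p-values below therefore reflect library-to-library spread alone, and that spread could be technical. The files hold no read counts, so no counting interval is given.

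As a check of the labels, AtBMI1B fell from 6.10 ± 0.339 FPKM (SD, n = 2) in WT to 0.145 ± 0.0527 in atbmi1b (adjusted p = 1.35e-05, limma with Benjamini-Hochberg adjustment). AtBMI1A went the other way in the libraries labelled atbmi1a, where it stood at 30.1 ± 4.72 FPKM against 6.50 ± 0.584 in WT (adjusted p = 0.000275). In atbmi1ab_strong AtBMI1A was at 8.54 ± 0.919 FPKM (adjusted p = 0.0958) and AtBMI1B at 1.80 ± 0.147 (adjusted p = 2.95e-05). AtBMI1C, not named in that label, was above WT there too, at 3.32 ± 0.141 FPKM (adjusted p = 3.42e-05). In atbmi1abc AtBMI1A was at 12.0 ± 2.42 FPKM (adjusted p = 0.00265), AtBMI1B at 3.77 ± 0.176 (adjusted p = 0.00242) and AtBMI1C at 3.69 ± 0.931, above its WT level of 0.0906 ± 0.0636 (adjusted p = 1.66e-05). AtBMI1A and AtBMI1C thus go against the labels. AtBMI1B was below WT in every genotype labelled as its mutant, but unevenly: 0.145 FPKM in atbmi1b against 3.77 in atbmi1abc, with 6.10 in WT. The genotype names used here are the labels of the libraries. A transcript of a mutant allele can still be counted, so these levels do not show which protein is made. Marker genes of seedling and other tissues also differed between genotypes. The summed level of 5 green leaf markers was 36029 to 41279 FPKM in WT, 28037 to 29757 in the libraries labelled atbmi1a, 25418 to 26730 in atbmi1b, 1146 to 1288 in atbmi1ab_strong and 1482 to 1534 in atbmi1abc. The summed level of 5 embryo markers was 17.7 to 22.5 FPKM in WT and 13.2 to 23.2 in atbmi1b, but 13512 to 16307 in atbmi1ab_strong, where CRU3 was listed at 0, and 29317 to 40256 in atbmi1abc. The higher sum in atbmi1abc rested on CRU3, at 17461 and 25294 FPKM there. CRU3 read 14.2 and 11.2 FPKM in WT, and whether its 0 in both atbmi1ab_strong libraries is a true level was not tested. The embryo sums of the double and triple mutants are therefore not like for like. OLEO1 overlapped, at 13409 and 16195 FPKM in atbmi1ab_strong and 11562 and 14665 in atbmi1abc. LEC1, FUS3 and ABI3 were also higher in atbmi1abc but were a small part of the sum. Replicate 1 labelled atbmi1a stood apart from replicate 2, with 903 against 14.5 FPKM of embryo markers. Root markers summed to 18.3 to 20.3 FPKM in WT, 14.0 to 23.7 in the libraries labelled atbmi1a, 17.7 to 19.1 in atbmi1b, 91.4 to 103 in atbmi1ab_strong and 114 to 136 in atbmi1abc. In atbmi1abc PIN2 was most of this sum, and of the 5 markers 3 were called higher and 2 lower. Those 2 were RSL4, at 0.309 ± 0.304 FPKM against 2.74 ± 0.475 in WT, and COBL9, at 0.680 ± 0.261 against 4.81 ± 0.680. Flower markers were low, between 1.31 and 16.6 FPKM in sum over all 10 libraries, with AP1 listed at 0 in WT, in the libraries labelled atbmi1a and in atbmi1abc, AG listed at 0 in atbmi1ab_strong and atbmi1abc, and AP3 listed at 0 in atbmi1abc. In RNA of whole seedlings, fewer cells of a type and less RNA per cell cannot be told apart, and the part these shifts play in the PRE levels was not tested.

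The 6 genes are alike in build and scattered in place. In the RefSeq annotation of TAIR10.1, each has 2 exons and a coding region of 279 to 285 bases, 92 to 94 codons without the stop. PRE1 lies at chr5:15957368-15958559 (plus strand), PRE2 at chr5:4921243-4922812 (minus strand), PRE3 at chr1:27997919-27998821 (minus strand), PRE4 at chr3:17590544-17591670 (plus strand), PRE5 at chr3:10855623-10856787 (minus strand) and PRE6 at chr1:9351160-9352833 (plus strand). PRE1 and PRE5 are the closest pair, with 84.6% of aligned coding bases and 87.0% of amino acids identical. All other pairs share 62.5% to 70.5% of coding bases. The longest stretch that any pair shares exactly in the coding region is 22 bases, tacaagagacttgcaactacat in PRE2 and PRE6. It is 20 bases in PRE1 and PRE5, gatgaagatagccctgaagc. How the authors' counting dealt with reads that fit several members is not given in the sources used here.

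For the 3 members whose levels differed most between genotypes, the 250 bases before the annotated start are shown: PRE2 and PRE6, which were lower in every mutant, and PRE4, which was far higher in the triple mutant. Sequences are RefSeq TAIR10.1, 5′ to 3′ on the gene's own strand, and capitals mark a G-box (CACGTG, bound by many bHLH and bZIP factors) in PRE2 and an RY element (CATGCA, bound by B3-domain factors of the seed) in PRE4. The windows are chr5:4922813-4923062 (minus strand) for PRE2, chr3:17590294-17590543 (plus strand) for PRE4 and chr1:9350910-9351159 (plus strand) for PRE6.
PRE2: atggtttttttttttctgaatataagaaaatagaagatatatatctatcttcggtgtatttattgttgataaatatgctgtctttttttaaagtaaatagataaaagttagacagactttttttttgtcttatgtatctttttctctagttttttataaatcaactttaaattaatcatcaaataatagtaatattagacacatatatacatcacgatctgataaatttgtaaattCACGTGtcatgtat
PRE4: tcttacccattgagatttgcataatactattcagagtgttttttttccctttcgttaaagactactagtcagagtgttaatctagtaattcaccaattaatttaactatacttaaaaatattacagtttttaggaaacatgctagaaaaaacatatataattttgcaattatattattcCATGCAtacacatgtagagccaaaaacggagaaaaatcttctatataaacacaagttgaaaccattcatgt
PRE6: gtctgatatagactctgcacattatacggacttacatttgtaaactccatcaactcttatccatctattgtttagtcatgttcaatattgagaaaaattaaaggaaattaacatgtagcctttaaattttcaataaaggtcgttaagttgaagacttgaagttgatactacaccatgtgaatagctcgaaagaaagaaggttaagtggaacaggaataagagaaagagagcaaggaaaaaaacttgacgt

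The G-box of PRE2 lies 14 to 9 bases before the annotated start, and the RY element of PRE4 lies 71 to 66 bases before it. Over the same 250 bases of 27443 annotated genes, on either strand, 6.49% of windows hold a G-box and 8.43% hold an RY element. The letters GAGAGA, found in 20.6% of windows, occur in PRE1 as 3 overlapping matches between 22 and 13 bases before the start. The telobox AAACCCTA (4.49% of windows), TGTCTC (10.9%), CGTGTG (5.37%) and CGTGCG (1.57%) were found in none of the 6. The looser E-box letters CANNTG, present in 55.3% of windows, occur once each in PRE2, where they are the G-box itself, PRE3 and PRE4, and at 2 places in PRE6. A match describes these letters only.

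In WT seedlings PRE6 carried most of the family's transcript. PRE6, known as KIDARI, binds HFR1, a light-signalling factor that restrains hypocotyl elongation. Its level was 46.1 and 55.8 FPKM in the WT libraries, which was 62.7% and 61.2% of the summed level of the 6 genes. PRE6 was lower in every mutant library than in either WT library. It read 17.1 and 18.6 FPKM in the libraries labelled atbmi1a and 21.0 and 21.1 in atbmi1b. It read 13.6 and 9.66 FPKM in atbmi1ab_strong and 0.552 and 1.22 in atbmi1abc. The genotypes therefore fell in the order WT, atbmi1b, atbmi1a, atbmi1ab_strong, atbmi1abc, and no neighbours in that order overlapped. The WT mean of 51.0 ± 6.88 FPKM was 2.86 times that of atbmi1a, 2.42 times that of atbmi1b, 4.38 times that of atbmi1ab_strong and 57.7 times that of atbmi1abc. On the scale of log2(FPKM + 1), where the changes of weakly expressed genes come out too small, PRE6 differed from WT by -4.80 ± 0.21 (SE) in atbmi1abc and by -2.05 ± 0.21 in atbmi1ab_strong.

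PRE2, 1 of the BNQ genes found downstream of the petal and stamen factors APETALA3 and PISTILLATA, followed a similar path at a lower level. Its WT libraries read 11.4 and 12.5 FPKM. The libraries labelled atbmi1a read 4.92 and 5.23 FPKM, and those of atbmi1b read 3.40 and 2.66. The double and triple mutants lay lowest, at 1.17 and 0.869 FPKM in atbmi1ab_strong and 1.33 and 0.210 in atbmi1abc. WT, atbmi1a, atbmi1b and atbmi1ab_strong did not overlap with each other, while atbmi1ab_strong and atbmi1abc did. The WT mean of 12.0 ± 0.781 FPKM was 11.7 times that of atbmi1ab_strong and 15.5 times that of atbmi1abc. On the log2(FPKM + 1) scale the differences from WT were -1.09 for atbmi1a, -1.69 for atbmi1b, -2.69 for atbmi1ab_strong and -2.95 for atbmi1abc, each ± 0.28 (SE).

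PRE5, the close relative of PRE1, was the least expressed member. It stood at 2.06 and 1.82 FPKM in WT and at 1.20 and 0.949 in the libraries labelled atbmi1a. It stood at 0.861 and 0.480 FPKM in atbmi1b, at 0 and 0.526 in atbmi1ab_strong, and at 0.378 and 0.158 in atbmi1abc. Each mutant library lay below both WT libraries, and the double and triple mutants overlapped. The log2(FPKM + 1) difference from WT was -1.25 ± 0.23 (SE) in atbmi1ab_strong and -1.22 ± 0.23 in atbmi1abc. Its mean over the 10 libraries, 0.843 FPKM, was under the minimum of 1 FPKM, so PRE5 was not among the 19460 loci that entered the tests, and 5 of the 6 members were.

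In the triple mutant PRE4 stood high where PRE6 stood low. PRE4 is BNQ3, whose loss is known to leave sepals and carpels pale, and in WT it was a minor member at 2.0 and 4.02 FPKM. The single mutants overlapped with WT or lay below it, with 3.18 and 1.85 FPKM in the libraries labelled atbmi1a and 0.533 and 1.47 in atbmi1b. In atbmi1ab_strong it read 2.61 FPKM in replicate 1 and was listed at 0 in replicate 2. In atbmi1abc it read 111.6 and 93.1 FPKM, while no other library was above 4.02. The atbmi1abc mean of 102 ± 13.1 FPKM was 34.0 times the WT mean of 3.01 ± 1.42, a difference of 4.73 ± 0.57 (SE) on the log2(FPKM + 1) scale. Against atbmi1ab_strong the ratio was 78.6 and the log2 difference 5.76 ± 0.57, values that rest partly on the library at 0: the difference was 4.84 without atbmi1ab_strong replicate 2 and 6.69 without replicate 1. Ranked by level within a library, PRE4 reached place 1218 among all loci. Its lowest place, 22183, is the tie of all 4904 loci listed at 0 in atbmi1ab_strong replicate 2.

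PRE3, also called TMO7 or ATBS1, is a direct target of the auxin response factor MONOPTEROS in the embryo. It read 9.65 and 14.3 FPKM in WT and 11.7 and 11.2 in atbmi1abc, and these groups overlapped. It was higher in between: 28.2 and 14.6 FPKM in the libraries labelled atbmi1a, 27.3 and 18.7 in atbmi1b, and 27.5 and 30.5 in atbmi1ab_strong. By its mean PRE3 was highest in the double mutant, at 29.0 ± 2.13 FPKM or 2.42 times WT, although replicate 1 labelled atbmi1a lay within the double mutant's range and atbmi1b replicate 1 just below it. The log2 difference from WT was 1.23 ± 0.31 (SE) in the double mutant and -0.04 ± 0.31 in the triple mutant. Its difference in atbmi1a, 0.74 ± 0.31, turned on replicate 1, which stood apart in embryo markers: the value was 0.29 without that library and 1.20 without replicate 2.

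PRE1, the founding member, whose overexpression is known to let seedlings grow without gibberellin, was low everywhere. It read 2.34 and 2.77 FPKM in WT, 4.22 and 6.38 in the libraries labelled atbmi1a, and 3.33 and 3.18 in atbmi1b. It read 0.406 and 1.68 FPKM in atbmi1ab_strong and 3.63 and 5.75 in atbmi1abc. The double mutant lay below all other libraries, WT and then atbmi1b came next, and atbmi1a and atbmi1abc, which overlapped with each other, lay highest. The log2 difference between atbmi1abc and atbmi1ab_strong was 1.52 ± 0.32 (SE), and it was 1.06 without atbmi1ab_strong replicate 1 and 1.99 without replicate 2.

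**Figure D1:**
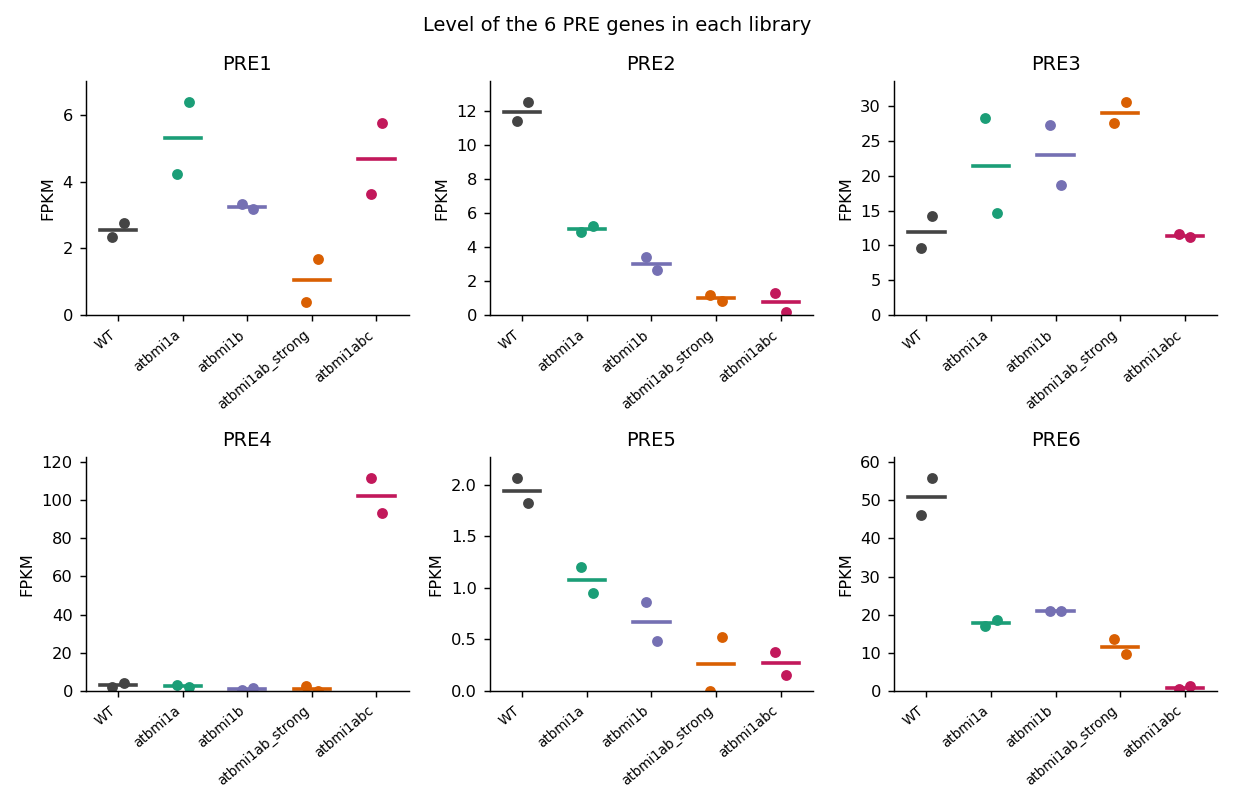
FPKM (vertical axis, linear, its own range in each panel) of the 6 PRE genes in the 5 genotypes. Points are the 2 libraries of a genotype and bars their mean; PRE6 falls from 46.1 and 55.8 FPKM in WT to 0.552 and 1.22 in atbmi1abc, while PRE4 is at 111.6 and 93.1 FPKM in atbmi1abc and at most 4.02 elsewhere.

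Between WT and the triple mutant the family exchanged its leading member. The summed FPKM of the 6 genes was 82.4 ± 12.5 (SD, n = 2) in WT, 53.2 ± 7.91 in the libraries labelled atbmi1a, 52.0 ± 6.28 in atbmi1b, 44.3 ± 1.44 in atbmi1ab_strong and 120 ± 12.4 in atbmi1abc. The triple mutant lay above WT and WT above the rest, the single mutants overlapped with each other, and the double mutant lay lowest. PRE6 made up 62.7% and 61.2% of the sum in WT but 0.43% and 1.09% in atbmi1abc, where PRE4 made up 86.4% and 83.4%. In atbmi1ab_strong the largest part was PRE3, with 60.7% and 70.5%. A sum hides the low members, so the mean of the 6 log2(FPKM + 1) levels was also taken, in which they still weigh less than on a plain log scale. Against WT it differed by -0.28 in atbmi1a, -0.60 in atbmi1b, -1.11 in atbmi1ab_strong and -0.60 in atbmi1abc, with a pooled SD between libraries of 0.117. With a pseudocount of 0.1 in place of 1 it differed by -1.88 in atbmi1ab_strong and -1.10 in atbmi1abc. Between atbmi1abc and atbmi1ab_strong it differed by 0.51, or 0.78 with a pseudocount of 0.1, and between the double and triple mutants together and the single mutants by -0.42, or -0.91 with a pseudocount of 0.1. The sum and the mean differ in sign for the triple mutant against WT. The atbmi1a value was -0.14 without WT replicate 2.

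**Figure D2:**
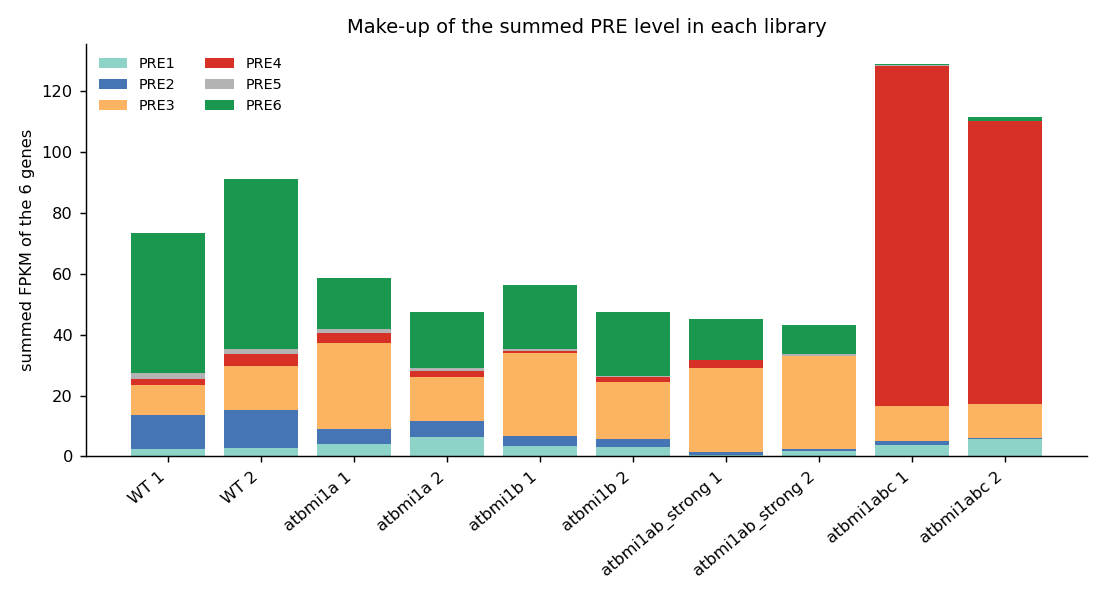
Summed FPKM of the 6 PRE genes (vertical axis, linear from 0) in each of the 10 libraries, stacked by gene. PRE6 fills most of the WT bars, PRE3 most of the atbmi1ab_strong bars, and PRE4 86.4% and 83.4% of the atbmi1abc bars.

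Counted by the limma call at an adjusted p under 0.05, of the 5 tested members 0 were higher and 2 lower in atbmi1a, where 17% of all tested loci were called higher and 18.4% lower (35.3% in either direction). In atbmi1b, 1 was higher and 2 were lower, beside 21.3% and 24.1% of all loci (45.4% in either direction). In atbmi1ab_strong, 1 was higher and 3 were lower, beside 31.8% and 32.6% (64.4% in either direction). In atbmi1abc, 1 was higher and 2 were lower, beside 36.3% and 37.7% (74% in either direction). Between atbmi1abc and atbmi1ab_strong, 2 were higher and 2 lower in the triple mutant, beside 32.1% and 25.2% (57.3% in either direction). The excess of higher loci in this comparison depended on scaling. With libraries scaled by the median of ratios, 47.6% of called loci were higher, against 56.1% without it. The median log2 difference of all tested loci moved from 0.099 to 0.0037. Between the double and triple mutants together and the single mutants, 1 was higher and 3 were lower, beside 35.5% and 36.7% (72.2% in either direction). Since the members were chosen with these differences known, nothing is read from the counts. The median log2 difference of all 6 members from WT was -0.34, -0.91, -1.14 and -0.63 in atbmi1a, atbmi1b, atbmi1ab_strong and atbmi1abc, while that of all tested loci lay between -0.01 and 0.02. The mutants share the WT libraries, so these values are not independent of each other.

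Genes with the most similar profiles were sought for each tested member among 8549 loci with a symbol. Likeness was the root mean square difference of log2(FPKM + 1), each gene centred on its own mean, over the 10 libraries, which hold only 5 genotypes. Closest to PRE6 were the copper chaperone gene CCH (0.29), the B-box gene COL5 (0.30) and the auxin-response gene IAA2 (0.31), beside a root mean square of 1.60 for PRE6 about its own mean. CCH fell from 515 and 573 FPKM in WT to 16.2 and 26.3 in atbmi1abc, COL5 from 264 and 290 to 8.0 and 6.50, and IAA2 from 202 and 182 to 5.10 and 7.10. Closest to PRE4 were the B-box gene BBX10 (0.69), the selenium-binding protein gene SBP3 (0.94) and MYB62 (0.94), against 2.21 for PRE4 itself. BBX10 read 56.6 and 28.1 FPKM in atbmi1abc and at most 0.587 in any other library. SBP3 read 188 and 159 FPKM there and 5.30 to 16.98 elsewhere. Closest to PRE2 were SAUR26, PFA-DSP5 and CAT2, all at 0.30 (PRE2 itself 1.1). Closest to PRE3 were C4H (0.22), the phenylpropanoid enzyme cinnamate hydroxylase, PDC3 (0.25) and NTMC2T5.2 (0.28), with 0.57 for PRE3 itself. Closest to PRE1 were GLY1 (0.34), HB31 (0.36) and SUMO5 (0.36), with 0.65 for PRE1 itself. Within the family by the same measure, PRE2 and PRE5 were the nearest pair (0.66) and PRE4 and PRE6 the farthest (3.62).

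**Figure D3:**
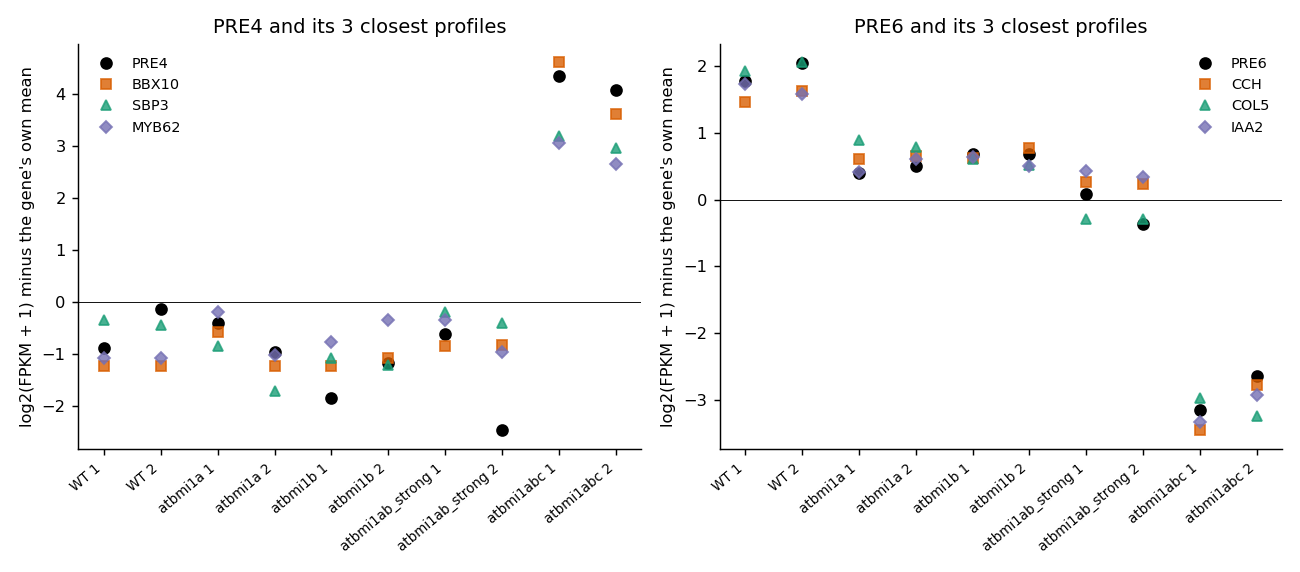
Profiles of PRE4 (left) and PRE6 (right) with their 3 closest loci, as log2(FPKM + 1) minus each gene's own mean (vertical axis) in each of the 10 libraries (horizontal axis). Points are single libraries; the PRE4 set stands high in the atbmi1abc libraries alone and the PRE6 set steps down from WT to atbmi1abc.

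The inhibitory HLH proteins that PRE proteins take up were measured as a list of 9 genes, written, like the other lists, with earlier results of these data known. Of the 9, 8 were lower in the libraries labelled atbmi1a, 8 in atbmi1b, 8 in atbmi1ab_strong and 8 in atbmi1abc, where 1 was higher (adjusted p under 0.05, limma with Benjamini-Hochberg adjustment over 19460 loci). The share called lower among all loci was 18.4%, 24.1%, 32.6% and 37.7% in the same order. Their median log2 difference from WT was -1.38, -1.29, -1.70 and -3.64, beside medians between -0.01 and 0.02 for all tested loci. Of the 5 green leaf markers, 4, 4, 5 and 5 were called lower in the same comparisons, and the part this plays was not tested.

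IBH1, the brassinosteroid-repressed inhibitor that PRE1 binds, was at 27.1 and 32.6 FPKM in WT and at 0.884 and 0.987 in atbmi1abc. Its log2 difference was -3.99 ± 0.13 (SE, adjusted p = 1.33e-07) in the triple mutant and -1.69 ± 0.13 (adjusted p = 1.38e-05) in the double mutant. No library of any mutant reached the WT range. IBL1, its relative, fell from 13.6 ± 1.22 FPKM (SD, n = 2) to 1.03 ± 0.425 in atbmi1abc (-2.86 ± 0.18 SE, adjusted p = 3.13e-06). Its lower call in atbmi1a was lost when either WT library or either atbmi1a library was left out (adjusted p 0.0518 to 0.106).

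HFR1, the partner of PRE6, was at 15.9 and 13.2 FPKM in WT, 4.26 and 3.82 in the libraries labelled atbmi1a, 2.33 and 3.29 in atbmi1b and 2.13 and 3.31 in atbmi1ab_strong. It was at 0.264 FPKM in atbmi1abc replicate 1 and listed at 0 in replicate 2. All 4 mutants lay below WT without overlap, with a log2 difference of -2.08 ± 0.21 (SE, adjusted p = 7.59e-05) in atbmi1ab_strong and -3.78 ± 0.21 (adjusted p = 1.81e-06) in atbmi1abc. PRE6 and its partner HFR1 were thus both lowest in the triple mutant.

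PAR1 and PAR2, shade-induced inhibitors of elongation, parted in the triple mutant. PAR1 was at 67.3 and 87.6 FPKM in WT and between 1.61 and 12.5 in all mutant libraries, with a log2 difference of -3.18 ± 0.44 (SE, adjusted p = 0.00182) already in atbmi1a and -4.40 ± 0.44 (adjusted p = 4.12e-05) in atbmi1abc. PAR2 was at 22.0 and 32.3 FPKM in WT and at 7.36 and 7.65 in atbmi1ab_strong (-1.70 ± 0.27, adjusted p = 0.000786), but at 43.3 and 47.0 in atbmi1abc. PAR2 was the only list member called higher against WT in any mutant, by 0.74 ± 0.27 (adjusted p = 0.0356) in atbmi1abc. It did not pass without WT replicate 1 (adjusted p = 0.214), without atbmi1abc replicate 1 (0.0797) or replicate 2 (0.123), and without any library of atbmi1b or atbmi1ab_strong (0.0517 to 0.0549). Its rise from the double to the triple mutant, 2.44 ± 0.27, had an adjusted p of 0.000212. The PAR2 call in atbmi1b (-1.09 ± 0.27) was lost without WT replicate 2 (0.0853) or atbmi1b replicate 1 (0.0737).

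The AIF genes encode inhibitors found through their binding to PRE3, and AIF2 and AIF3 were lowest in the triple mutant and next lowest in the double mutant. AIF3 was at 138 and 147 FPKM in WT, 41.5 and 39.8 in the libraries labelled atbmi1a, 27.6 and 29.5 in atbmi1b, 16.97 and 17.3 in atbmi1ab_strong and 7.64 and 9.13 in atbmi1abc. None of these groups overlapped, and the log2 difference reached -3.94 ± 0.10 (SE, adjusted p = 4.71e-08) in atbmi1abc. AIF2 fell from 50.8 ± 7.73 FPKM in WT to 8.81 ± 0.601 in atbmi1ab_strong and 3.13 ± 0.229 in atbmi1abc (-3.64 ± 0.13 SE, adjusted p = 2.33e-07). AIF1 passed the test in the double mutant (-1.33 ± 0.31, adjusted p = 0.00622) and the triple mutant (-1.88 ± 0.31, adjusted p = 0.00076), with values of -0.08 in atbmi1a and 0.06 in atbmi1b. AIF4 was called lower in atbmi1abc (-1.28 ± 0.24, adjusted p = 0.00152) and both single mutants, and its value of -0.54 in atbmi1ab_strong missed the threshold (adjusted p = 0.0813). AIF4 in the double mutant passed once atbmi1a replicate 1 (adjusted p = 0.00701) or replicate 2 (0.00702) was left out, and its call in atbmi1a was lost without WT replicate 1 (0.063) or replicate 2 (0.0612).

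Of the growth-promoting bHLH activators that the inhibitors hold back, 8 of 9 listed genes were tested; CIB1 is only in a merged entry with its neighbour and was not analysed on its own. In atbmi1abc 5 fell and 3 rose, and in atbmi1ab_strong 4 fell and 1 rose. Over all loci 37.7% were lower and 36.3% higher in atbmi1abc, so the share that rose is close to that of all loci, and 32.6% and 31.8% in atbmi1ab_strong. HBI1, the activator that IBH1 blocks, was at 87.9 and 83.7 FPKM in WT, 59.2 and 27.5 in the libraries labelled atbmi1a, 18.3 and 18.5 in atbmi1b, 1.80 and 2.09 in atbmi1ab_strong and 0.324 and 0.948 in atbmi1abc. The groups formed a descending order without overlap, with log2 differences of -4.88 ± 0.32 (SE, adjusted p = 6.52e-06) in the double and -5.76 ± 0.32 (adjusted p = 1.68e-06) in the triple mutant. The brassinosteroid-early genes BEE1, BEE2 and BEE3 fell alongside it. BEE2 went from 54.1 ± 4.14 FPKM in WT to 0.589 ± 0.319 in atbmi1ab_strong (-5.13 ± 0.21, adjusted p = 6.48e-07) and 0.173 ± 0.0749 in atbmi1abc. BEE3 went from 75.4 ± 1.38 FPKM to 0.621 ± 0.0837 (-5.56 ± 0.44, adjusted p = 1.7e-05) and 0.145 ± 0.0737, and BEE1 from 34.3 ± 8.06 to 2.21 ± 0.373 (-3.45 ± 0.24, adjusted p = 8.02e-06) and 1.45 ± 0.101.

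CIB5, a relative of the cryptochrome-interacting bHLH factors, rose instead in the double and triple mutants. It was at 4.38 and 5.0 FPKM in WT, 14.3 and 16.5 in atbmi1ab_strong (1.53 ± 0.12 SE, adjusted p = 1.36e-05) and 41.4 and 42.1 in atbmi1abc (2.91 ± 0.12, adjusted p = 3.32e-07). ACE1, an activator of cell elongation, was at 13.8 and 13.9 FPKM in WT and 29.9 and 30.5 in atbmi1abc (1.07 ± 0.08, adjusted p = 7.37e-06). Both genes were without overlap between WT and the triple mutant. In atbmi1ab_strong ACE1 did not pass (0.17 ± 0.08, adjusted p = 0.0854). The single mutants went the other way: CIB5 was called lower in atbmi1a (-0.39 ± 0.12, adjusted p = 0.035) and ACE1 in atbmi1b (-0.37 ± 0.08, adjusted p = 0.00701). The values of CIB5 in atbmi1b (-0.17) and ACE1 in atbmi1a (-0.11) missed the threshold. ACE3, a relative of ACE1, fell in atbmi1abc by 0.42 ± 0.11 on the log2 scale (adjusted p = 0.00883), a call lost without atbmi1abc replicate 1 (0.0602).

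In the single mutants, 4 of the 8 activators were called lower in atbmi1a and 5 in atbmi1b, and 0 higher in either. Over all loci 18.4% were lower and 17% higher in atbmi1a, and 24.1% and 21.3% in atbmi1b. HBI1 (-2.16 ± 0.32 SE, adjusted p = 0.00129) led in atbmi1b and BEE1 (-1.78 ± 0.24, adjusted p = 0.00159) in atbmi1a. The count in atbmi1a was 1 without WT replicate 1 or WT replicate 2, 2 without atbmi1b replicate 1 or replicate 2, 1 when only the groups compared were fitted and 2 with no filter on low loci. The count in atbmi1b was 3 without WT replicate 1 or atbmi1b replicate 2.

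**Figure D4:**
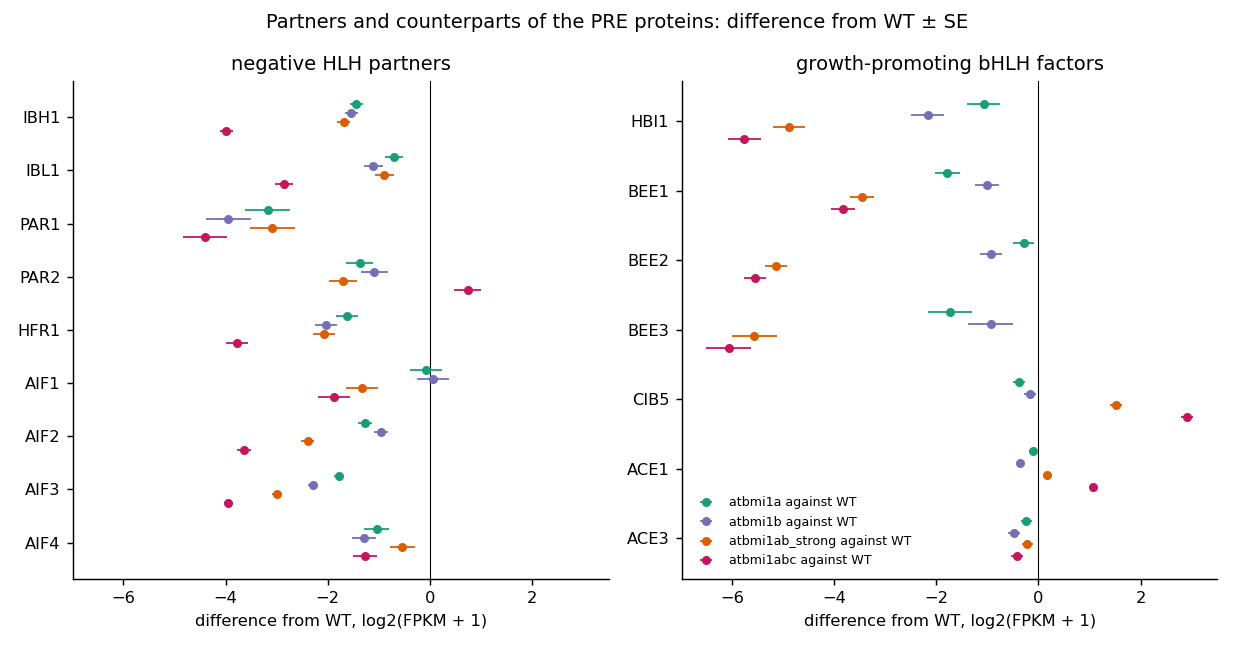
Log2(FPKM + 1) difference from WT (horizontal axis; points are limma estimates, lines ± 1 SE) of the 9 inhibitory HLH genes (left) and 7 of the 8 tested activators (right) in the 4 mutants, by colour. Nearly all inhibitors lie left of 0 in all mutants, PAR2 in atbmi1abc (0.74) being the exception past the threshold. Among the activators, HBI1, BEE1 to BEE3 and ACE3 lie left of 0 in all mutants. CIB5 and ACE1 lie right of 0 in atbmi1ab_strong and atbmi1abc but left of 0 in both single mutants.

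Of the regulators known to act above the PRE genes, 12 were listed and 10 tested. In atbmi1ab_strong 6 were lower and 0 higher, and in atbmi1abc 7 were lower and 2 higher, beside 32.6% lower and 31.8% higher of all loci in the double and 37.7% and 36.3% in the triple mutant. PIF4, a bHLH factor of the warmth and shade responses that is known to switch on PRE genes, was at 58.4 and 68.7 FPKM in WT, 1.96 and 1.98 in atbmi1ab_strong (-4.44 ± 0.16 SE, adjusted p = 3.74e-07) and 0.180 and 0.508 in atbmi1abc (-5.59 ± 0.16, adjusted p = 8.98e-08). Its relative PIF5 stayed at 89.0 and 89.8 FPKM in the libraries labelled atbmi1a, beside 87.4 and 92.5 in WT, and was at 1.76 and 1.81 in atbmi1abc (-5.03 ± 0.09, adjusted p = 2.55e-08). PIF3 fell in all 4 mutants, by 1.63 ± 0.17 on the log2 scale in atbmi1a (adjusted p = 0.000687) and by 2.87 ± 0.17 in atbmi1abc (adjusted p = 2.52e-06). BES1, a transcription factor of the brassinosteroid response, fell from 121 ± 0.632 FPKM in WT to 22.5 ± 2.11 in atbmi1ab_strong (adjusted p = 3.36e-07) and 19.1 ± 0.0508 in atbmi1abc (adjusted p = 1.45e-07).

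Among 12 tested genes of brassinosteroid synthesis and signalling, 2 were higher and 4 lower in atbmi1ab_strong, and 1 was higher and 7 lower in atbmi1abc. With the stricter minimum of 5 FPKM 4 were lower in atbmi1abc. Weakly expressed genes called lower, such as BRL1 and BR6OX1, then no longer entered the test. With 32.6% of all loci lower in the double mutant, its count of 4 of 12 is near the share of all loci, which was 37.7% in the triple mutant. The synthesis enzyme CPD fell from 275 ± 16.0 FPKM in WT to 42.5 ± 3.59 in atbmi1ab_strong (-2.66 ± 0.10 SE, adjusted p = 3.24e-07) and 70.3 ± 4.83 in atbmi1abc (-1.95 ± 0.10, adjusted p = 8.81e-07). The receptor BRI1 fell from 73.9 ± 5.93 FPKM to 28.6 ± 1.45 (adjusted p = 7.84e-06) and 43.8 ± 3.40 (adjusted p = 0.000142). Genes that damp the pathway were lower too: BKI1, an inhibitor of BRI1, by -2.32 ± 0.12 (adjusted p = 1.64e-06) in the double and -2.08 ± 0.12 (adjusted p = 1.69e-06) in the triple mutant. BAS1, which inactivates the hormone, differed by -2.12 ± 0.25 (adjusted p = 0.000154) and -2.73 ± 0.25 (adjusted p = 2.48e-05) in the same order. BIN2 shares a merged entry with its neighbour and was not analysed on its own.

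The 16 tested genes of gibberellin synthesis and signalling held 8 higher and 5 lower in atbmi1ab_strong, beside 31.8% and 32.6% of all loci, and 7 higher and 6 lower in atbmi1abc, beside 36.3% and 37.7%. The counts in atbmi1abc, and that of lower genes in atbmi1ab_strong, lie near the share of all loci. The receptor gene GID1C fell from 18.0 and 22.1 FPKM in WT to 1.1 and 1.31 in atbmi1abc (-3.25 ± 0.15 SE, adjusted p = 7.17e-07). GID1B, another receptor gene, was higher in atbmi1ab_strong (18.1 ± 0.811 FPKM against 8.49 ± 1.87 in WT, adjusted p = 0.00137) and lower in atbmi1abc (1.22 ± 0.305, adjusted p = 1.62e-05). The DELLA repressors of growth went in different directions: GAI fell from 52.2 ± 7.42 FPKM to 21.6 ± 1.69 in atbmi1abc (adjusted p = 3.57e-05), and RGL2, the DELLA best known from seeds, rose from 2.02 ± 0.286 to 16.8 ± 2.34 (adjusted p = 2.84e-06).

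The 29 listed cell elongation and wall genes were mostly lower, and their dependence on the PRE proteins was not tested. In the libraries labelled atbmi1a 21 fell and 1 rose, in atbmi1b 21 fell and 1 rose, in atbmi1ab_strong 18 fell and 3 rose, and in atbmi1abc 23 fell and 3 rose. Over all loci 18.4%, 24.1%, 32.6% and 37.7% were lower and 17%, 21.3%, 31.8% and 36.3% higher in the same order. The list's median log2 difference was -0.91, -0.98, -1.10 and -2.42 in that order. XTH4, a xyloglucan-remodelling enzyme of the wall, was at 736 and 680 FPKM in WT, 83.1 and 70.6 in atbmi1ab_strong (-3.19 ± 0.12 SE, adjusted p = 4.58e-07) and 14.8 and 17.8 in atbmi1abc (-5.36 ± 0.12, adjusted p = 4.28e-08). The expansin genes EXPA3 and EXPA8, whose products loosen the wall, fell from 67.6 ± 2.94 to 0.607 ± 0.369 FPKM (adjusted p = 8.52e-08) and from 70.7 ± 3.52 to 4.72 ± 0.0292 (adjusted p = 4.07e-07) in atbmi1abc. Another expansin gene, EXPA5, rose in every mutant: it was at 3.02 and 3.70 FPKM in WT, 16.3 and 21.7 in the libraries labelled atbmi1a, 17.2 and 17.9 in atbmi1b, 73.4 and 89.1 in atbmi1ab_strong and 154 and 178 in atbmi1abc (5.26 ± 0.16, adjusted p = 1.05e-07). SAUR19 to SAUR24 in this list are near-identical copies among which reads could have been split, so their single values are uncertain. Each was called lower in atbmi1ab_strong and atbmi1abc. They enter the counts above as separate genes, though their values may not be independent.

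**Figure D5:**
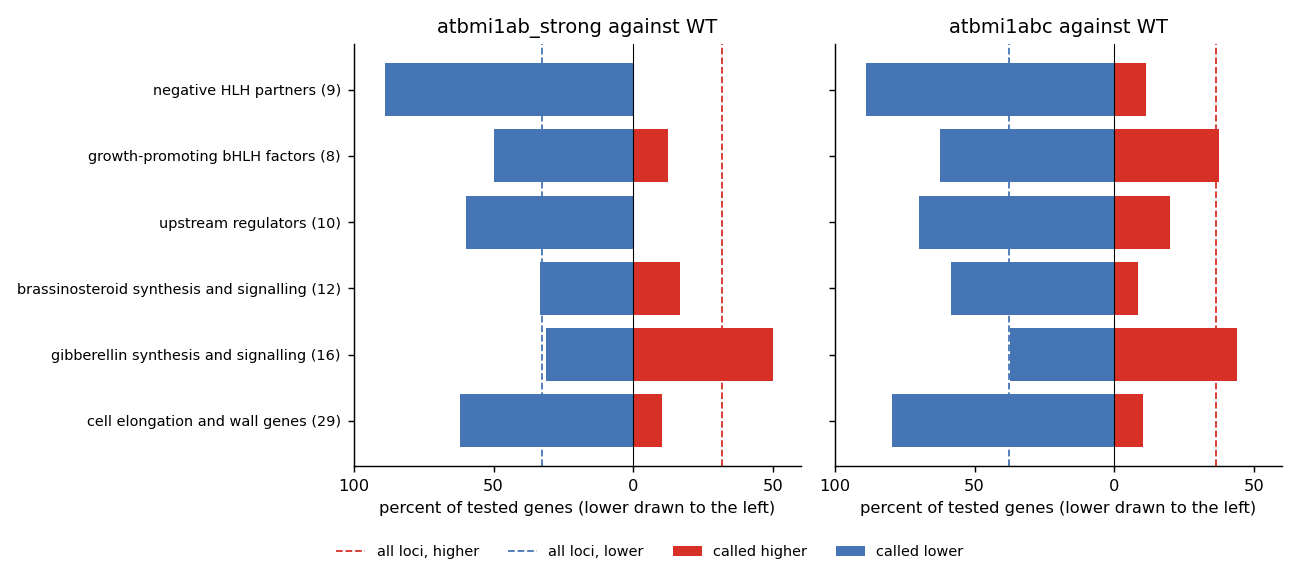
Percent of tested genes called higher (red, right of 0) and lower (blue, left of 0) in atbmi1ab_strong and atbmi1abc against WT for 6 gene lists, with the number tested in parentheses. Dashed lines mark the same percentages over all 19460 tested loci, 31.8% higher and 32.6% lower in the double mutant and 36.3% and 37.7% in the triple mutant; the inhibitory HLH genes (8 of 9 lower in both) and the wall genes lie farthest to the left of them.

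The protein-coding neighbours of each PRE gene were measured beside it. Of 12 neighbours, 10 were tested: 4 were higher and 3 lower in atbmi1ab_strong, and 3 higher and 3 lower in atbmi1abc. These counts lie near the share of all loci, 31.8% higher and 32.6% lower in the double and 36.3% and 37.7% in the triple mutant. Beside PRE4, MAG2 lies 3836 bases away and was at 4.6 and 5.13 FPKM in WT and 6.0 and 6.19 in atbmi1abc, a log2 difference of 0.28 ± 0.13 (SE) that missed the threshold (adjusted p = 0.0815). On its other side SRO4, 887 bases away, was too low to be tested, at 0.509 and 0.367 FPKM in WT, 0.500 and 1.11 in atbmi1ab_strong and 2.62 and 2.04 in atbmi1abc. SRO4, like PRE4, was thus highest in atbmi1abc, though both neighbours stayed far under the 111.6 and 93.1 FPKM of PRE4. Beside PRE6, AT1G26940 was at 16.6 and 15.6 FPKM in WT and 18.2 and 19.3 in atbmi1abc (0.21 ± 0.12, adjusted p = 0.142), and AtHB23, a homeobox gene 2993 bases away, fell from 9.16 and 7.14 to 3.0 and 3.23 (-1.14 ± 0.13, adjusted p = 9.15e-05). Beside PRE2, the homeobox gene HB-3 was lower in atbmi1b (-1.39 ± 0.14, adjusted p = 0.000197) and higher in atbmi1ab_strong (0.69 ± 0.14, adjusted p = 0.0027), where PRE2 itself was lower. Beside PRE1, AT5G39850 rose from 17.4 and 16.6 FPKM in WT to 254 and 259 in atbmi1abc (3.84 ± 0.18, adjusted p = 7.37e-07). Beside PRE3, AT1G74490 rose in the double (2.17 ± 0.16, adjusted p = 1.13e-05) and triple mutant (2.56 ± 0.16, adjusted p = 2.84e-06), while PRE3 overlapped with WT in the latter. Beside PRE5, the auxin transporter gene ABCB19 was lower in all 4 mutants, by -1.31 ± 0.13 (adjusted p = 5.03e-05) in atbmi1ab_strong and -0.45 ± 0.13 (adjusted p = 0.0121) in atbmi1abc, the latter lost without WT replicate 1 (0.0715) or atbmi1abc replicate 2 (0.0583).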

How the data were processed

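RNA of Col-0 seedlings was sequenced in 10 libraries, 2 for each of 5 genotypes. Reads went through FastQC, TopHat, Cufflinks and Cuffdiff on the TAIR10 build, per the submitters' processing notes, with versions, options and the annotation not given in the sources used here. FPKM values were deposited as 1 table per library. Since the file headers name only an expression value, FPKM was inferred from Cufflinks and from the range of the values. FPKM sums ranged from 792416 to 990295, 270 loci are merged entries, and none of 45 library pairs was identical.

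Because the files hold FPKM, a count model was not used. R 4.3.3 with limma 3.58.1, moderated with a trend on the mean level, was run on log2(FPKM + 1), all 10 libraries in a common fit with a term for each genotype, leaving 5 residual degrees of freedom. The 19460 loci averaging 1 FPKM or more entered it. Benjamini-Hochberg adjusted p-values under 0.05 were called. The code of the fit was run on simulated data in which few loci differed, unlike in these libraries. That run therefore does not show how accurate the calls are here. Log2 values of the members come from the same model, that of PRE5 from a fit of all loci. Levels, profiles and motifs were computed with Python 3.11.15, pandas 2.3.3 and Biopython 1.88, and coordinates and sequences read from the RefSeq genome and annotation of TAIR10.1. Members, gene lists and tests were chosen with earlier results of these data known. Named genes are the members, all inhibitors and activators (1 activator is not reported here), up to 4 genes per other list with the smallest adjusted p in the double or triple mutant, neighbours, markers and, per tested member, its 3 closest profiles. Alternatives were another pseudocount, scaling, filter, set of libraries and replicate block, and each library left out.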

Additional observations from a re-analysis of the deposited data

How the results depend on the processing

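With a pseudocount of 0.1 in place of 1, the mean log2 difference of the 6 PRE genes was larger: -0.83 in atbmi1b, -1.88 in atbmi1ab_strong and -1.10 in atbmi1abc against WT, 0.78 between atbmi1abc and atbmi1ab_strong, and -0.91 between the double and triple mutants together and the single mutants. Leaving out 1 library at a time, the same mean ranged from -0.42 to -0.14 in atbmi1a, -0.74 to -0.46 in atbmi1b, -1.25 to -0.97 in atbmi1ab_strong, -0.75 to -0.46 in atbmi1abc, 0.44 to 0.58 between atbmi1abc and atbmi1ab_strong, and -0.46 to -0.38 between the double and triple mutants together and the single mutants; the ends of the 4 ranges against WT came from leaving out a WT library. The called genes of the 6 lists numbered 49, 56, 59 and 73 in atbmi1a, atbmi1b, atbmi1ab_strong and atbmi1abc, and 33 to 49, 46 to 64, 54 to 64 and 69 to 75 with 1 library left out. With the replicate number as a block they numbered 46, 57, 61 and 72. Same-numbered libraries showed no pairing common to all groups: over 10 group pairs they correlated between -0.226 and 0.119 in their deviations. The 2 pairs over 0.1 were atbmi1abc with atbmi1b (0.115) and with atbmi1ab_strong (0.119), so a weak pairing among these groups is not excluded. With the block AIF4 was called lower in atbmi1ab_strong (adjusted p = 0.0473), and the calls of PAR2 in atbmi1abc (0.0536) and HBI1 in atbmi1a (0.0538) were lost. No member difference larger than its own spread between replicates changed sign. Smaller ones did with 1 library left out: PRE4 in atbmi1a (-0.54 to 0.20), PRE3 in atbmi1abc (-0.30 to 0.22), PRE2 (-0.74 to 0.21) and PRE5 (-0.27 to 0.34) between atbmi1abc and atbmi1ab_strong, and PRE3 between the double and triple mutants together and the single mutants (-0.45 to 0.0049). Over all member values, those above included, 465 moved by less than the spread between replicates and 39 by more. Most of the 39 came under the pseudocount of 0.1 or without 1 library of the group itself. Many of the 465 could not move, so their number does not measure how firm the values are. A difference of group means stays the same with the replicate block, with only the groups compared, or without a library of another group. With 2 libraries per genotype and members under 5 FPKM, small differences are not resolved.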
